A study of Mus musculus with 9 samples.

Results

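Dapl1, Igfbp4, Actn1, Satb1, Nsg2, Treml2 and Rgcc are 7 genes whose transcripts mark the naive state of CD8 T cells, and their levels were followed across 3 clones of such cells. They were taken by symbol from a table of 24060 genes, and each symbol had 1 row. Dapl1 and Igfbp4 were chosen by their measured differences between the clones in these same samples. Their values are therefore given as a description with no test. The SE and intervals shown for them are limma estimates from the spread within clones over all 9 samples, and cannot be read as a test. The other 5 were tested. All 7 were among the 12115 genes with a TPM over 1 in at least 1 sample, the genes on which the tests ran.

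The mice, named Rop7-I, Rop7-II and Rop7-III, are transnuclear lines on a BALB/c background, each made by somatic cell nuclear transfer from 1 CD8 T cell specific for the Rop7 peptide of Toxoplasma gondii on H-2Ld. The lines differ in their rearranged T-cell receptor, and the study's figure legends describe the cells of all 3 lines compared by RNA as homozygous for it. Each line stands for 1 clone, so that the receptor and anything else inherited in that line cannot be told apart. Ages are not given in the sources used here. Splenocytes of all 3 lines were kept overnight with IL-2 at 10 ng/ml and no antigen, and CD3+ CD8+ cells that bound the Rop7 tetramer were sorted. Each clone had 3 samples, 9 in all. Their RNA was sequenced with single-end reads, without strand.

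A naive CD8 T cell has left the thymus and has not yet met its antigen. It circulates through spleen and lymph nodes, guided by receptors such as Ccr7, is kept alive by interleukin 7 and by weak contacts of its receptor with self-peptide, and divides little. Transcription factors such as Tcf7, Lef1 and Klf2 are high in this state. Stronger receptor signals turn many naive-state transcripts down and switch on genes of effector and memory cells.

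Values are in TPM, a share of all transcripts scaled to a common total, which corrects for transcript length and so allows levels of different genes to be compared. The depth behind each value is unknown, since TPM keep no read counts. CD8 T cell markers were high in every sample, with a sum of 6401 to 7099 TPM over 8 genes and none at 0. Markers of other cells were uneven. The summed level of 13 B-cell markers was 1000 TPM for Rop7-II replicate 1 and between 71.6 and 440 TPM in the others, and all 13 were highest in that sample. The summed level of 13 myeloid markers was 876 TPM there and 148 to 358 TPM elsewhere. None of the B-cell or myeloid markers was called between clones by limma. At an unadjusted p under 0.05 there were 0 B-cell markers in any comparison, and 8, 0 and 2 myeloid markers in Rop7-III minus Rop7-II, Rop7-III minus Rop7-I and Rop7-I minus Rop7-II. Some results that touch Rop7-II are therefore also given without replicate 1. As in any bulk sample, fewer cells of a type and less RNA per cell cannot be told apart.

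The promoter letters of Dapl1, Igfbp4 and Rgcc are shown as examples of the 2 opposite orders of the clones that are described below. The first pair was highest in Rop7-III and lowest in Rop7-II, and Rgcc was highest in Rop7-II and lowest in Rop7-III. Satb1 and Treml2 had the same order of means as the first pair, with smaller log2 ranges of 0.11 and 0.46, and are not printed. Each window runs from 250 bases before to 50 bases after the gene's start, is read 5′ to 3′ on the gene's strand, and comes from RefSeq on GRCm38.p6. Capitals mark matches to the FOXO letters GTAAACA, the KLF letters CACCC, which read as GGGTG where the match is on the opposite strand, or the TATA letters TATAAA.
Dapl1 at chr2:59484403-59484702, plus strand: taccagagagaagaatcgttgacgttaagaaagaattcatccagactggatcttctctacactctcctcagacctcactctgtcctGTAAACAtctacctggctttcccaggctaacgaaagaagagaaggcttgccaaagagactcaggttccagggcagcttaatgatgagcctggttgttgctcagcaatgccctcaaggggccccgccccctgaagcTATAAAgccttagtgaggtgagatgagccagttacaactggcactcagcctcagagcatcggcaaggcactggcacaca
Igfbp4 at chr11:99040994-99041293, plus strand: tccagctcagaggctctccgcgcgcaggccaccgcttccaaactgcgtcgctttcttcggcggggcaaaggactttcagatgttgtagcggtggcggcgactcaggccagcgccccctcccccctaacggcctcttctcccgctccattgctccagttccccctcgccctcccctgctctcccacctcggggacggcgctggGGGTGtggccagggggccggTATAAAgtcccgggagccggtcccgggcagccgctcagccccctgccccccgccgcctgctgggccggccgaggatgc
Rgcc at chr14:79301586-79301885, minus strand: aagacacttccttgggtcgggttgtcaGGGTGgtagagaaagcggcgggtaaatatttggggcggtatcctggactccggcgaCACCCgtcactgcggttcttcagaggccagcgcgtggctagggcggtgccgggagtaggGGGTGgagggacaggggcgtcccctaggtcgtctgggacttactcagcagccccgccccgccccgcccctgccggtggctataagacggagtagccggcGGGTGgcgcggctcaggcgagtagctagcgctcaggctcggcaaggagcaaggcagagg

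The Dapl1 and Igfbp4 windows each held the TATA letters, 29 and 28 bases before the start. These letters were in 13.6% of 32851 promoters of the same length, and they were added to the search after the windows had been read. The Dapl1 window also held the FOXO letters, found in 3.65% of promoters, 164 bases before the start. The Igfbp4 window had 1 match to the KLF letters and the Rgcc window had 4, against 57.5% of promoters with at least 1. GC content was 51% for Dapl1, 71.3% for Igfbp4 and 66.7% for Rgcc, with a median of 52.7% over all promoters. The TCF/LEF letters CTTTGAT, in 3.73% of promoters, and the ETS letters CCGGAAGT, in 3.89%, were in none of the 3 windows. Both strands were searched for all 5 motifs, whose letters do not overlap one another in these windows. A match is a description of the sequence, and it says nothing of what binds there. Windows were found for 6 of the 7 genes, all but Treml2. Of the windows not printed, those of Satb1 and Nsg2 held matches to the KLF letters only, and that of Actn1 held none of the 5 motifs.

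Dapl1 encodes a small protein related to Dap, the death-associated protein, and lies on chromosome 2 from 59484653 to 59505020. Its level was 354, 364 and 329 TPM in the 3 samples of Rop7-III, 256, 260 and 207 TPM for Rop7-I, and 29.3, 53.8 and 43.8 TPM for Rop7-II. The clones did not overlap, and every Rop7-II sample was far below every sample of the other two. The mean was 349 ± 17.8 TPM for Rop7-III, 241 ± 29.4 TPM for Rop7-I and 42.3 ± 12.3 TPM for Rop7-II (SD, n = 3 each). This is a mean ratio of 8.25 between Rop7-III and Rop7-II, 5.70 between Rop7-I and Rop7-II, and 1.45 between Rop7-III and Rop7-I. On the log2(TPM + 1) scale the differences were 3.06, 2.52 and 0.54, each with an SE of 0.18. The lowest sample was Rop7-II replicate 1, the one high in B-cell and myeloid markers, and without it the difference between Rop7-III and Rop7-II was 2.82.

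Igfbp4 encodes a secreted protein that binds insulin-like growth factors, and lies on chromosome 11 from 99041244 to 99054392. It was the least abundant of the 7 genes. Its level was 13.5, 15.9 and 12.5 TPM for Rop7-III, 6.92, 7.67 and 5.34 TPM for Rop7-I, and 3.01, 6.38 and 4.89 TPM for Rop7-II. All Rop7-III samples were above all others, and Rop7-I and Rop7-II overlapped. The means were 14.0 ± 1.70, 6.64 ± 1.19 and 4.76 ± 1.69 TPM (SD, n = 3 each). Rop7-III was 2.94 times the mean of Rop7-II and 2.10 times that of Rop7-I, and the log2(TPM + 1) differences were 1.42 and 0.98, with an SE of 0.21. Between Rop7-I and Rop7-II the difference was 0.44 (SE 0.21), and it fell to 0.20 without Rop7-II replicate 1. Dapl1 and Igfbp4 thus had the same order of means, but in Dapl1 the gap was below Rop7-I and in Igfbp4 it was above it.

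**Figure D1:**
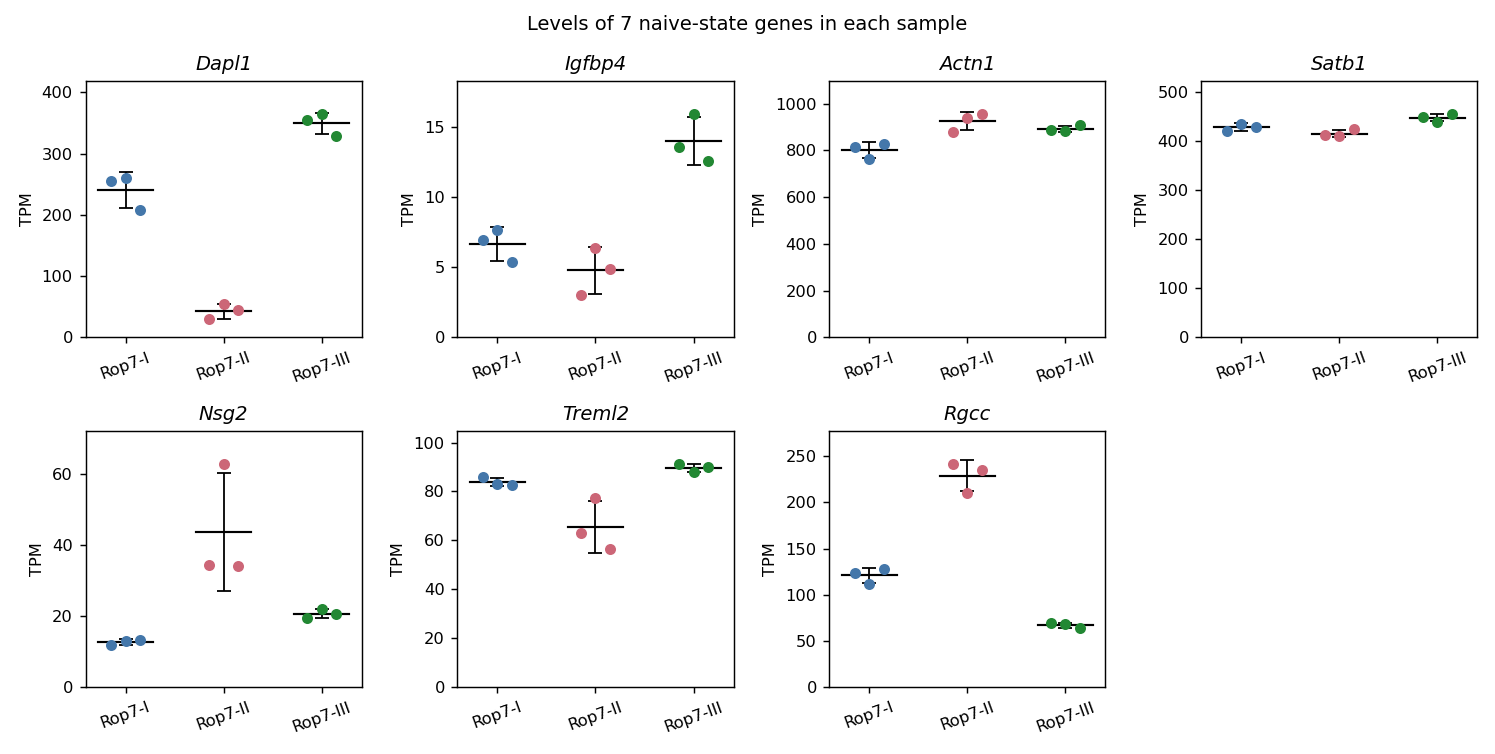
Level in TPM of the 7 naive-state genes in each sample, by clone, with points for the 3 samples of a clone, a bar for their mean and whiskers for the SD, on linear axes that start at 0. Dapl1 was between 29.3 and 53.8 TPM for Rop7-II and above 207 TPM in all other samples, Rgcc was highest in Rop7-II, and Actn1 and Satb1 were nearly level.

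Of the other 5 genes, 3 were called between Rop7-III and Rop7-II, 1 between Rop7-III and Rop7-I, and 3 between Rop7-I and Rop7-II, at an adjusted p under 0.01 (limma on all 12115 genes, Benjamini-Hochberg). Over all genes tested, 12.3%, 4.85% and 7.53% were called in these comparisons. By direction, 1 was higher and 2 were lower in Rop7-III beside Rop7-II, where 6.39% of all genes were higher and 5.89% lower. The gene called between Rop7-III and Rop7-I was lower in Rop7-III, where 2.58% of all genes were higher and 2.28% lower. All 3 called between Rop7-I and Rop7-II were lower in Rop7-I, where 3.67% of all genes were higher and 3.85% lower. With at least a 2-fold difference as well, 1, 0 and 1 of the 5 were called, against 1.70%, 1.06% and 0.949% of all genes. The samples of the 2 clones did not overlap for 4, 5 and 4 of the 5 genes, and the same was true of 40.7%, 38.2% and 35.0% of all genes. The 3 comparisons share samples and are not independent of each other. The median difference over the 5 genes was -0.05, 0.09 and -0.21 on the log2(TPM + 1) scale, beside -0.02, 0.00 and -0.01 over all genes. The genes named for a common cell state therefore did not move as a block, and each is described in turn.

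Rgcc encodes a regulator of the cell cycle that binds the kinase Cdk1, and lies on chromosome 14 from 79288756 to 79301645. Its level was 241, 210.01 and 235 TPM for Rop7-II, 124, 112 and 127 TPM for Rop7-I, and 69.3, 67.7 and 63.9 TPM for Rop7-III. No 2 clones overlapped. The means were 229 ± 16.7 TPM for Rop7-II, 121 ± 8.22 TPM for Rop7-I and 67.0 ± 2.82 TPM for Rop7-III (SD, n = 3 each). Rgcc was lower in Rop7-III than Rop7-II by a log2 difference of -1.76 (SE 0.06, limma adjusted p = 5.17e-07) and lower than Rop7-I by one of -0.84 (SE 0.06, adjusted p = 7.85e-05). It was also lower in Rop7-I than Rop7-II, with a log2 difference of -0.91 (SE 0.06, adjusted p = 3.14e-05). The study's own list of genes at least 2-fold apart between Rop7-III and Rop7-II already held Rgcc as lower. That list came from the same samples, so the call in that pair repeats a known result. These 3 calls held without any 1 sample and under every other alternative run except a 2-fold minimum, which only the difference between Rop7-III and Rop7-II reached. Cdk1 itself was near its floor, at 1.14, 1.25 and 2.12 TPM for Rop7-III and no more than 0.62 TPM in any other sample. Its log2 difference was 0.72 for Rop7-III minus Rop7-II and 0.80 for Rop7-III minus Rop7-I, neither of them called (limma adjusted p = 0.0313 and 0.0348).

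The order of Rgcc was that of Dapl1 turned around. It was also the reverse of the order of Cd5, a surface glycoprotein that dampens receptor signalling and whose level is known to follow self-reactivity. Cd5 is named here after its values were seen. It was 176, 181 and 175 TPM for Rop7-III, 72.9, 71.5 and 58.5 TPM for Rop7-I and 33.4, 52.9 and 37.9 TPM for Rop7-II. None of the clones overlapped in Cd5. With 3 clones, an order is a description of these 3 lines only.

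Nsg2 encodes a vesicle protein of the secretory and endosomal pathway, best known from neurons, and lies on chromosome 11 from 32000463 to 32059202. It was 34.3, 62.8 and 34.0 TPM for Rop7-II, 19.4, 21.9 and 20.5 TPM for Rop7-III, and 11.8, 13.1 and 13.4 TPM for Rop7-I. The clones did not overlap, but the 3 Rop7-II samples were spread widely, with replicate 2 far above the other two. The means were 43.7 ± 16.5, 20.6 ± 1.25 and 12.7 ± 0.847 TPM (SD, n = 3 each). Nsg2 was lower in Rop7-I than Rop7-II by a log2 difference of -1.64 (SE 0.20, limma adjusted p = 0.000706), a call that held without any 1 sample. It was lower in Rop7-III than Rop7-II by one of -0.99 (SE 0.20, adjusted p = 0.00666). That second call was lost without any 1 of the 6 Rop7-I or Rop7-III samples, with an adjusted p of 0.0118 to 0.0275, and also with no filter, with no trend of the spread or with only the 2 clones in the fit (0.015, 0.0164 and 0.0301). Between Rop7-III and Rop7-I the log2 difference was 0.66 (95% interval 0.21 to 1.10, adjusted p = 0.0579), and it was called (adjusted p = 0.000622) once Rop7-II replicate 2 was left out of the fit. Without that same sample the difference between Rop7-III and Rop7-II was -0.70 (adjusted p = 0.000401). Nsg2 thus put Rop7-II at the top, as Rgcc did, but with Rop7-I and not Rop7-III at the bottom.

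Treml2 encodes a surface receptor of the TREM family found on lymphoid and myeloid cells, and lies on chromosome 17 from 48299498 to 48312533. It was 91.2, 87.9 and 89.8 TPM for Rop7-III, 85.9, 83.1 and 82.7 TPM for Rop7-I, and 62.8, 77.2 and 56.6 TPM for Rop7-II. The clones did not overlap, with a wide spread in Rop7-II only. The means were 89.6 ± 1.66, 83.9 ± 1.75 and 65.6 ± 10.6 TPM (SD, n = 3 each). Treml2 was higher in Rop7-III than Rop7-II by 0.46 on the log2 scale (SE 0.09, limma adjusted p = 0.00623). This call held only without Rop7-II replicate 2 (adjusted p = 0.000137), and with any 1 of the other 8 samples left out it missed the threshold, with an adjusted p of 0.0115 to 0.0257. It was lost as well with no filter, no trend or only the 2 clones in the fit (0.0131, 0.0162 and 0.0292). Rop7-I was above Rop7-II by 0.36 (95% interval 0.16 to 0.57, adjusted p = 0.0236), which was called without Rop7-II replicate 2 (adjusted p = 0.000509). Rop7-III and Rop7-I differed by 0.09 (95% interval -0.11 to 0.30, adjusted p = 0.539). Treml2 is also expressed by B cells and myeloid cells, and the part of such cells in its values was not tested. Rop7-II replicate 1, the sample highest in their markers, was at 62.8 TPM, beside 77.2 and 56.6 TPM in the rest of its clone.

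Actn1 encodes alpha-actinin 1, which cross-links actin filaments, and lies on chromosome 12 from 80167547 to 80260371. It was the most abundant of the 7 genes, at 815, 764 and 829 TPM for Rop7-I, 881, 941 and 954 TPM for Rop7-II, and 887, 882 and 908 TPM for Rop7-III. Rop7-I was below both other clones in every sample, and Rop7-II and Rop7-III overlapped. The means were 803 ± 34.5, 925 ± 39.0 and 892 ± 14.0 TPM (SD, n = 3 each). The difference between Rop7-I and Rop7-II was small, -0.21 on the log2 scale (SE 0.04, limma adjusted p = 0.00867), and was called only with all 9 samples or without Rop7-II replicate 1 (adjusted p = 0.00369). Leaving out any other sample gave an adjusted p of 0.0142 to 0.0324, and with no filter, no trend, only the 2 clones, a common median or quantile normalization it was 0.0163 to 0.0854. Rop7-III differed from Rop7-I by 0.15 (95% interval 0.06 to 0.24, adjusted p = 0.038) and from Rop7-II by -0.05 (95% interval -0.14 to 0.04, adjusted p = 0.38).

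Satb1 encodes a chromatin organiser that T cells need for their development, and lies on chromosome 17 from 51736187 to 51833290. It was 449, 439 and 454 TPM for Rop7-III, 420.3, 435 and 429 TPM for Rop7-I, and 412, 409 and 423 TPM for Rop7-II. Rop7-III was above both other clones in every sample, and Rop7-I and Rop7-II overlapped. The means were 447 ± 7.42, 428 ± 7.32 and 415 ± 7.54 TPM (SD, n = 3 each). No difference was called. The 95% interval was 0.05 to 0.17 for Rop7-III minus Rop7-II (limma adjusted p = 0.0177), 0.00 to 0.12 for Rop7-III minus Rop7-I (adjusted p = 0.163) and -0.01 to 0.11 for Rop7-I minus Rop7-II (adjusted p = 0.282), all on the log2 scale. The range of its clone means was at percentile 24.4 of all genes, the lowest of the 7. Exons of Actn1 and Satb1 overlap antisense or unclassified transcripts by 88 to 363 bases, and reads without strand cannot be split between them.

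**Figure D2:**
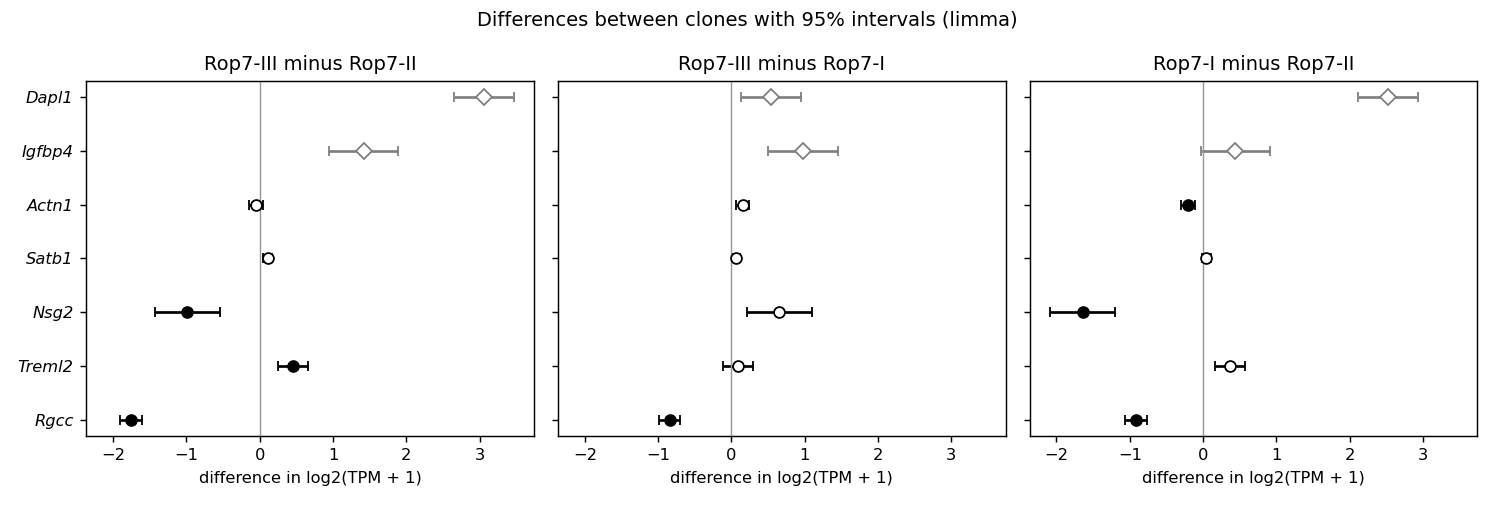
Differences between clones in log2(TPM + 1) for the 7 genes, 1 panel per comparison, with 95% intervals from limma. Filled points were called at an adjusted p under 0.01, open points were not, and grey diamonds mark Dapl1 and Igfbp4, which were not tested. Dapl1 and Igfbp4 were chosen by their differences in these same samples. Their intervals, estimated from the spread within clones over all 9 samples, therefore cannot be read as a test. Rgcc was called lower in all 3 panels, and the intervals of Satb1 lay within 0.17 of 0.

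The 7 genes thus ranged from 4.76 TPM in the lowest clone mean (Igfbp4) to 925 TPM in the highest (Actn1). Their spread between clones ran from a log2 range of 0.11 for Satb1 and 0.21 for Actn1, through 0.46 for Treml2, to 1.42 for Igfbp4, 1.64 for Nsg2, 1.76 for Rgcc and 3.06 for Dapl1. The median range over all genes tested was 0.19. The 2 most abundant genes were also the 2 flattest. Rop7-II held the lowest mean of Dapl1, Igfbp4, Satb1 and Treml2 and the highest mean of Actn1, Nsg2 and Rgcc.

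Relatives and partners of the 7 genes were measured from a list of 26, of which 9 passed the filter on low values. Of these, 2 were called between Rop7-III and Rop7-II, and 1 in each of the other comparisons (22.2%, 11.1% and 11.1%, beside 12.3%, 4.85% and 7.53% of all genes). Dap, the paralogue of Dapl1 on chromosome 15 from 31224314 to 31274341, was the gene called in all 3. It is named with a test because the choice of Dapl1 did not use it. The list that holds Dap was still made with earlier results of these data known. Dap was 187, 189 and 185 TPM for Rop7-III, 123, 126 and 123 TPM for Rop7-I, and 72.5, 79.2 and 82.5 TPM for Rop7-II. The clones did not overlap, and the order was that of Dapl1. The log2 difference was 1.25 between Rop7-III and Rop7-II (SE 0.04, limma adjusted p = 4.25e-07), 0.59 between Rop7-III and Rop7-I (adjusted p = 7.65e-05) and 0.66 between Rop7-I and Rop7-II (adjusted p = 2.2e-05). All 3 calls held without any 1 sample. The gap of Dap between Rop7-III and Rop7-II was smaller than that of Dapl1, a difference of 1.25 beside 3.06.

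Igfbp4 was the only IGF-binding protein of the list above 1 TPM. Igfbp1, Igfbp2, Igfbp3 and Igfbp5 were listed at 0 in every sample, and Igfbp6 and Igfbp7 did not exceed 0.98 and 0.38 TPM. The growth factors that these proteins bind were low too, with Igf1 and Igf2 at most 0.18 TPM. Their receptors were present. Igf1r had a mean of 61.3 TPM for Rop7-I, 55.6 in Rop7-II and 56.7 in Rop7-III, and was not called in any comparison. Igf2r was higher in Rop7-III than Rop7-II by 0.22 on the log2 scale (limma adjusted p = 0.00543). This call was kept in 4 of 9 fits that left out 1 sample, and Rop7-II replicate 1 was among the samples without which it was lost. The other families had 1 or 2 expressed members. Beside Actn1, Actn4 was at 189, 179 and 190 TPM and Actn2 at 24.9, 18.9 and 22.6 TPM for Rop7-I, Rop7-II and Rop7-III. Nsg1 and Treml1 did not exceed 0.17 and 0.14 TPM.

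**Figure D3:**
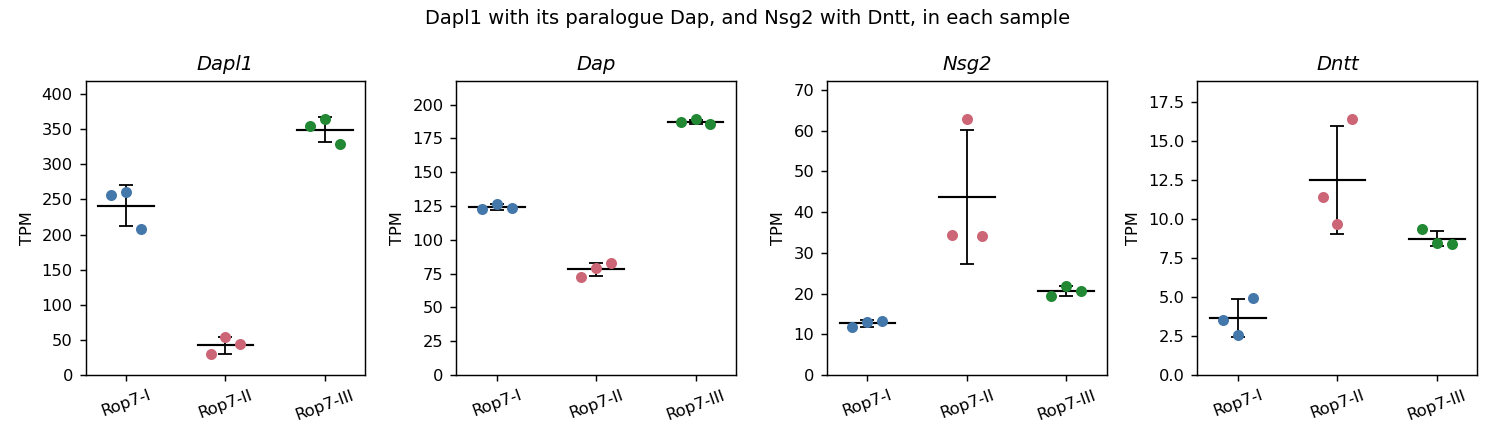
Level in TPM of Dapl1 and its paralogue Dap, and of Nsg2 and Dntt, in each sample, with points for samples, bars for the mean of 3 and whiskers for the SD, on linear axes that start at 0. Dap followed the clone order of Dapl1 with smaller gaps (187, 124 and 78.1 TPM), and both Nsg2 and Dntt were highest in Rop7-II and lowest in Rop7-I.

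The wider naive and homing programme was read from a list of 20 other genes, all of them expressed. Of these, 5 were higher and 1 was lower in Rop7-III than Rop7-II, 4 were higher in Rop7-III than Rop7-I, and 3 were higher and 2 lower in Rop7-I than Rop7-II. The share called was 30%, 20% and 25%, beside 12.3%, 4.85% and 7.53% of all genes. The list's median difference was 0.09, 0.10 and -0.03, beside -0.02, 0.00 and -0.01 over all genes. Il7r, the receptor chain for interleukin 7, was the only one with a called difference of at least 2-fold. Its mean was 749 TPM for Rop7-III, 511 TPM for Rop7-I and 317 TPM for Rop7-II, with a log2 difference of 1.24 between Rop7-III and Rop7-II (limma adjusted p = 1.26e-06), 0.55 between Rop7-III and Rop7-I (adjusted p = 0.000264) and 0.69 between Rop7-I and Rop7-II (adjusted p = 4.85e-05). These calls held without any 1 sample.

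The following genes of that list were named after their values were seen. Ccr7, a homing receptor, was at 808 ± 21.8 TPM for Rop7-II and 684 ± 6.83 TPM for Rop7-I (SD, n = 3 each), a log2 difference of -0.24 for Rop7-I minus Rop7-II (limma adjusted p = 0.000522). Klf2, a factor that drives S1pr1, was lower in Rop7-I than Rop7-II by a log2 difference of -0.68 (adjusted p = 0.000262). Lef1 had means of 734 to 774 TPM and Tcf7 means of 2233 to 2447 TPM, and neither was called in any comparison.

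A list of 10 genes of recent thymic export had 6 expressed members. Between Rop7-III and Rop7-II 2 were higher and 1 was lower, between Rop7-III and Rop7-I 3 were higher, and between Rop7-I and Rop7-II 1 was lower (50%, 50% and 16.7%, beside 12.3%, 4.85% and 7.53% of all genes). Dntt, the terminal transferase of developing lymphocytes, was 11.4, 9.69 and 16.4 TPM for Rop7-II, 9.32, 8.47 and 8.41 TPM for Rop7-III, and 3.51, 2.53 and 4.93 TPM for Rop7-I. No 2 clones overlapped, and the order of the means was that of Nsg2. Dntt was lower in Rop7-I than Rop7-II by a log2 difference of -1.54 (limma adjusted p = 0.0014), a call kept without any 1 sample, and higher in Rop7-III than Rop7-I by 1.09 (adjusted p = 0.00979), a call kept in 4 of 9 such fits. Between Rop7-III and Rop7-II the difference was -0.44 and was not called (adjusted p = 0.155). The recombinase genes Rag1 and Rag2 did not exceed 0.1 TPM. Sox4, Itm2a and Ccr9 were named after their values were seen. Sox4 and Itm2a were higher in Rop7-III than Rop7-II by 0.50 and 0.53 (limma adjusted p = 0.000813 and 0.000357). Ccr9, the most abundant of the 3, was lower in Rop7-III, at 189 TPM beside 247 TPM (log2 -0.38, limma adjusted p = 0.00879). That call was kept in 2 of 9 fits that left out 1 sample, and was lost without Rop7-II replicate 1.

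Genes of antigen-experienced CD8 cells were read from a list of 27, of which 22 were expressed. Of these, 5 were higher and 1 lower in Rop7-III than Rop7-II, 1 was higher in Rop7-III than Rop7-I, and 1 was higher in Rop7-I than Rop7-II. The share called was 27.3%, 4.55% and 4.55%, beside 12.3%, 4.85% and 7.53% of all genes. The list's median difference was negative in all 3 comparisons, at -0.37, -0.24 and -0.04, beside -0.02, 0.00 and -0.01 over all genes. The genes below the median included S100a4, named after its values were seen, at 1.46 ± 0.191 TPM for Rop7-III and 11.8 ± 12.2 TPM for Rop7-II (SD, n = 3 each). That difference was not called (log2 -1.70, limma adjusted p = 0.15), and the myeloid markers had a median difference of -1.42 in the same comparison. The part of myeloid cells in it was not tested. Ccl5, a chemokine of memory and effector cells, had a mean of 28.8 TPM for Rop7-III, 7.74 TPM for Rop7-I and 4.14 TPM for Rop7-II. It was higher in Rop7-III than Rop7-II by 2.61 on the log2 scale (limma adjusted p = 8.99e-05) and than Rop7-I by 1.77 (adjusted p = 0.00174), the latter lost without Rop7-III replicate 2 or 3. The chemokine receptor Cxcr3 and the interleukin 18 receptor chain Il18rap were higher in Rop7-III than Rop7-II by 2.07 and 1.34 (adjusted p = 0.00151 and 0.00213), and the call of Il18rap was lost without Rop7-III replicate 3 (adjusted p = 0.011). Both were at low levels, with means for Rop7-III and Rop7-II of 4.72 and 0.343 TPM for Cxcr3 and 3.18 and 0.683 TPM for Il18rap. Eomes, a transcription factor of memory cells, was higher in Rop7-I than Rop7-II by 2.19 (adjusted p = 0.000188).

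**Figure D4:**
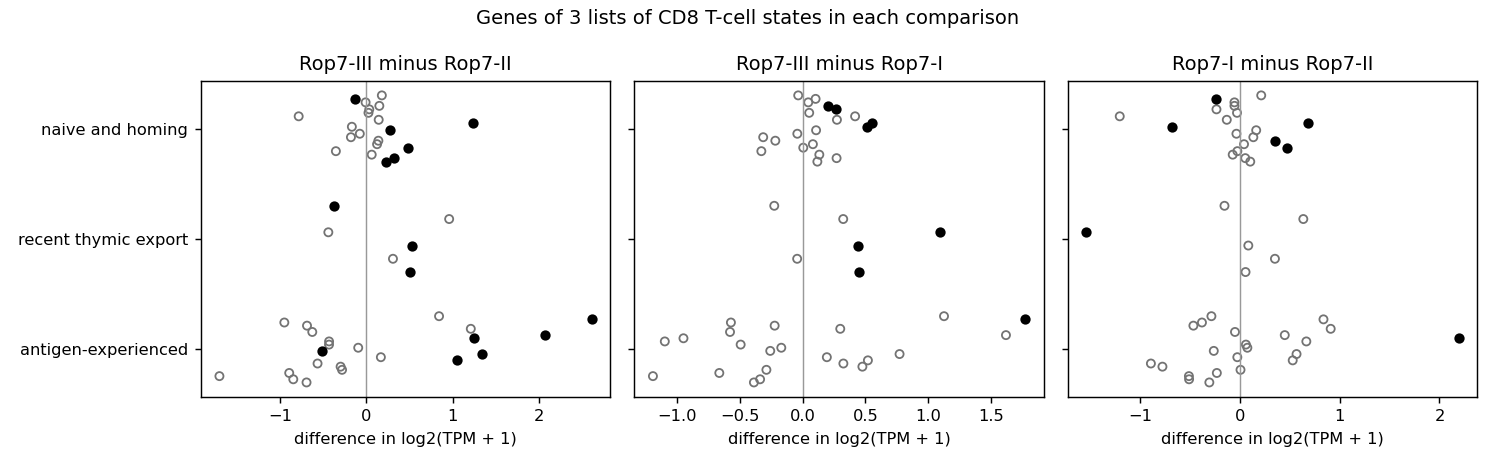
Differences between clones in log2(TPM + 1) for the expressed genes of 3 lists, naive and homing (20 genes), recent thymic export (6) and antigen-experienced (22), with 1 panel per comparison. Filled points were called at an adjusted p under 0.01, vertical placement within a list has no meaning, and the horizontal scales differ between panels. Most naive and homing genes lay near 0, and the called antigen-experienced genes lay mostly to the right.

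The CD8 markers differed in both directions. Cd8a had a mean of 623 TPM for Rop7-III, 702 TPM for Rop7-I and 820 TPM for Rop7-II, and was lower in Rop7-III than Rop7-II by a log2 difference of -0.39 (limma adjusted p = 0.000205). Cd2, an adhesion receptor, and Cd28, a costimulatory receptor, went the other way by 0.54 and 0.66 (adjusted p = 1.52e-05 and 1.73e-05). Cd2 and Cd28 were named after their values were seen. Of the 8 CD8 markers, 2 were higher and 1 lower in this comparison, 0 were called between Rop7-III and Rop7-I (4 at an unadjusted p under 0.05), and 2 were higher and 2 lower in Rop7-I beside Rop7-II. The lists of other cells held 2 called genes, both higher in Rop7-III than Rop7-II. These were Cd40lg (1.66, limma adjusted p = 0.000384) of the CD4 T-cell list and Klrk1 (2.21, adjusted p = 0.00106) of the NK-cell list. Cd40lg was also higher in Rop7-III than Rop7-I (1.97, adjusted p = 0.000324). Its level was low, with means of 3.20 TPM for Rop7-III, 0.0733 TPM for Rop7-I and 0.347 TPM for Rop7-II. The 5 CD4 T-cell markers summed to 18.7 to 39.3 TPM, the 5 NK-cell markers to 4.36 to 34.6 TPM and the 6 erythroid markers to 15.2 to 1408 TPM, the last being highest in Rop7-I replicate 2. The gene with the highest clone means was Tnfrsf4 in the CD4 T-cell list (15.7 to 19.3 TPM) and Klrk1 in the NK-cell list (4.54 to 25.1 TPM). Cd4 itself did not exceed 6.75 TPM, and Ncr1, Klrb1c, Klra8 and Klre1 did not exceed 1.19 TPM. Whether other cells had a part in the differences of the 7 genes was not tested.

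Genes near the 7 were read within 1 Mb on either side, using GRCm38 positions. Between 1 and 26 tested neighbours were found for each gene. Pkp4, a junction protein whose gene ends 129.4 kb from Dapl1, shared the low level in Rop7-II, with means of 33.3 TPM for Rop7-III, 23.4 TPM for Rop7-I and 8.17 TPM for Rop7-II. Its log2 difference was 1.91 between Rop7-III and Rop7-II (limma adjusted p = 5.2e-06) and 1.42 between Rop7-I and Rop7-II (adjusted p = 3.39e-05). It was the only one of 8 neighbours of Dapl1 called in either, which is 12.5%, beside 12.3% and 7.53% of all genes. Top2a, the topoisomerase of dividing cells, lies 17.05 kb from Igfbp4 and had means of 8.15, 1.89 and 1.02 TPM for Rop7-III, Rop7-I and Rop7-II. It was higher in Rop7-III than Rop7-II by 2.17 (adjusted p = 9.08e-05) and than Rop7-I by 1.64 (adjusted p = 0.00106). Of 26 neighbours of Igfbp4, 5 and 2 were called in these comparisons (19.2% and 7.69%, beside 12.3% and 4.85% of all genes). These calls of Pkp4 and Top2a held without any 1 sample. Beside Treml2, B430306N03Rik at 3.608 kb was higher in Rop7-I than Rop7-II by 1.02 (adjusted p = 0.00246, lost without Rop7-I replicate 1). Beside Nsg2, Stc2 at 630.4 kb was higher in Rop7-I than Rop7-II by 1.24 (adjusted p = 0.00712, kept in 2 of 9 fits without 1 sample), opposite to Nsg2. In that comparison 1 of 22 neighbours of Treml2 and 2 of 15 neighbours of Nsg2 were called (4.55% and 13.3%, beside 7.53% of all genes).

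Among all genes tested, those most like the variable members were found by the root mean square difference of their centred log2(TPM + 1) over the 9 samples, where 0 is an identical pattern. The genes nearest to Dapl1 were Msgn1 (0.38), Smc6 (0.42) and Col6a4 (0.47), where the median over all genes was 1.37. Igfbp4 was nearest to Hs3st3b1 (0.19), Reck (0.20) and Ank (0.21), with a median of 0.66. Nsg2 was nearest to Slc26a11 (0.27), Amigo2 (0.27) and Dok2 (0.32), and Rgcc to Nfam1 (0.19), Als2cl (0.21) and Gpr97 (0.22), with medians of 0.73 for both. None of the 7 genes was among the 3 nearest of another.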

How the data were processed

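The authors aligned 100 bp reads to mm10 RefSeq genes with RSEM 1.2.11 and deposited TPM per gene and sample, scaled to a common total per sample, with the tests of their own run on counts in DESeq2 1.8.1. Sorted purity was 90 to 95% per the methods, and 200 ng of RNA was used per sample. Between 11056 and 11494 genes exceeded 1 TPM in a sample. The TPM keep no read depth, so no counting interval was computed.

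Values were analysed as log2(TPM + 1) for 12115 genes with a maximum TPM over 1 (7126 were at 0 everywhere). The 3 clone pairs were tested with limma 3.58.1 in R 4.3.3, in 1 fit of all 9 samples that let the variance depend on mean level and Benjamini-Hochberg adjustment over all genes of a pair, and called under 0.01. All p-values are two-sided. Samples of a clone were taken as biological replicates, no 2 samples were identical, and no batch is named. The method was tested on simulated data.

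The members and lists were chosen with earlier results of these data known. Named were the 7 genes, list genes called at 2-fold or more (up to 3 per list and pair), family genes, called 2-fold neighbours within 1 Mb, the 3 most alike genes for members with a log2 range of at least 1, and markers. Others are said to be named after their values were seen, and 2 genes of the lists are not reported here. Positions are from GENCODE on GRCm38, for 11488 of the tested genes, and promoters from RefSeq GRCm38.p6. Alternatives were pseudocounts of 0.1 and 0.5, no filter or 1 TPM in every sample, a common median, quantile normalization, no trend, sample weights, only the 2 clones compared, a replicate block, each sample left out, an adjusted p under 0.05 and a 2-fold minimum.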

Additional observations from a re-analysis of the deposited data

How the results depend on the processing

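Of the 5 tested genes, 3 were called between Rop7-III and Rop7-II, and this became 1 with no filter, with no trend or with only the 2 clones compared. Between Rop7-III and Rop7-I the count of 1 became 2 with only the 2 clones compared or at an adjusted p under 0.05. A 2-fold minimum left 1, 0 and 1 genes. Leaving out 1 sample gave 1 to 3 genes between Rop7-III and Rop7-II (1 without any of the 6 samples of Rop7-I or Rop7-III), 1 to 2 between Rop7-III and Rop7-I (2 without Rop7-II replicate 2) and 2 to 3 between Rop7-I and Rop7-II. No difference of the 7 genes changed direction after being called.

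The genes that crossed the threshold were Nsg2, Treml2, Actn1 and, under quantile normalization, Satb1 (Rop7-III minus Rop7-II, limma adjusted p = 0.00939), and the cause was not tested. Rgcc was called in all 3 comparisons under each alternative but the 2-fold minimum, which it passed only between Rop7-III and Rop7-II. Replicate numbers did not pair the samples. Correlations of same-numbered deviations ran from -0.388 to 0.106, with 1 of 9 above 0.1, and 1 of 9 samples correlated best with its own number. A replicate block gave 2, 1 and 2 called genes, losing Treml2 between Rop7-III and Rop7-II (limma adjusted p = 0.0119) and Actn1 between Rop7-I and Rop7-II (0.013). Depth, and so the precision of the low levels of Igfbp4, is unknown.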
